A study of Mus musculus with 8 samples.

Results

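The genes described here encode proteins that the liver bud and the yolk sac secrete into embryonic blood: Afp (alpha-fetoprotein), Fga, Fgb and Fgg (the 3 chains of fibrinogen), Ttr (transthyretin), Rbp4 (retinol-binding protein), Apoa1, Apoa2 and Apob (apolipoproteins) and Trf (transferrin). They were found by their gene names among the non-control spots of the arrays. The 10 genes, of 27827 gene names on the array, had 14 of its 41174 probes, since Apob had 5 probes and each other gene had 1. Of these, 6 probes of 6 genes (Afp, Fgb, Fgg, Apoa2, Rbp4 and Trf) met the filter of the test, a signal marked as well above background on each of the 4 arrays of a group, as did 20028 probes in all. The tissue was the posterior second heart field (pSHF), microdissected from mouse embryos at day 9.5 after fertilization, and the comparison asks which transcripts depend on the dose of Tbx5, a T-box transcription factor of atrial septum progenitors. There were 4 RNA pools of Tbx5+/- embryos, which carry 1 mutant allele of Tbx5, and 4 pools of wild-type embryos, each on 1 array. Embryo numbers 1, 5, 6 and 7 name the pools in both groups. The mutant line was kept on a mixed genetic background, the dams of both groups received gonadotropins before mating, and the number of embryos in a pool is not given in the sources used here.

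At this stage the liver bud grows out of the ventral foregut endoderm beside the heart, and its hepatoblasts begin to make plasma proteins. The visceral endoderm of the yolk sac makes many of the same proteins, takes up maternal nutrients through the receptor pair cubilin and amnionless, and supplies lipoproteins before the liver takes over. Hepatocyte nuclear factors of the HNF1 and HNF4 families and FOXA proteins drive these genes in both tissues. None of the genes is a defining gene of pSHF mesenchyme. For its comparison of Shh mutants, the study states that attached foregut was part of the dissected pSHF tissue.

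Upstream sequences are shown for Afp and the fibrinogen chains, because Afp, Fgb and Fgg had the largest SDs between Tbx5+/- pools. Each is the 250 bases before the annotated start, 5′ to 3′ on the gene's strand, from RefSeq on build GRCm38.p6. Capitals mark the HNF1 half-site GTTAAT on either strand.
Afp, chr5:90490464-90490713, forward strand: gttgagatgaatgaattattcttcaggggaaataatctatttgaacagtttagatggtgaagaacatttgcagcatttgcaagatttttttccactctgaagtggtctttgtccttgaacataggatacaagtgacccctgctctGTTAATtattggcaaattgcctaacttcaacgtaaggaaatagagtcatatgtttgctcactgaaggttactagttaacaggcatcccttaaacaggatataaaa
Fga, chr3:83025903-83026152, forward strand: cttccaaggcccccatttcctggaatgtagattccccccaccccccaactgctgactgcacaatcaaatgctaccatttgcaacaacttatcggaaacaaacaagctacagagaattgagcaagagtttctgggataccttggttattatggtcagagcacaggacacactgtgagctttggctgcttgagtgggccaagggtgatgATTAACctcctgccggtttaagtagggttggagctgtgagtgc
Fgb, chr3:83049864-83050113, reverse strand: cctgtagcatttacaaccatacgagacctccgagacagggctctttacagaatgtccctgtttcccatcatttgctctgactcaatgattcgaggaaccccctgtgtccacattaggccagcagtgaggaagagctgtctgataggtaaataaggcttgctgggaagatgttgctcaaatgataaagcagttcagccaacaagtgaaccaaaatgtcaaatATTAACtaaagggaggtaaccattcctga
Fgg, chr3:83007474-83007723, forward strand: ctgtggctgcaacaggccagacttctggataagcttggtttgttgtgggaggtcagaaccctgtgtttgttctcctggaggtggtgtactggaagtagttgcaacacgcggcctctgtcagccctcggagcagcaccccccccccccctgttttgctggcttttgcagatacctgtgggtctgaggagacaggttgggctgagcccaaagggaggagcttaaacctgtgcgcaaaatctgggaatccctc
The half-site began at position -105 from the start in Afp, -43 in Fga and -29 in Fgb, and these letters were not in the window of Fgg. Of 32851 windows of this length, 6.43% held it on either strand. RefSeq windows were at hand for 8 of the 10 genes (10 windows). Among them the forkhead letters TGTTTAC stood upstream of Apoa2 and Rbp4 (3.17% of all windows), TATTTAC upstream of Fgb (2.73%), and TATAAA upstream of Afp, Apoa2, Apob and Rbp4 (12.4%). The T-box half-site AGGTGT was found upstream of Apoa1 and Apoa2, and in 11.8% of all windows. In the printed windows, neither TATAAA of Afp nor TATTTAC of Fgb overlaps the capitals.

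Probe sequences are shown for Trf and Apoa2, the genes with the largest differences between the groups, and for Apob, whose probes lie at different distances from the 3′ end. They are given as on the array, 5′ to 3′, with positions on mm9 and, for Apob, the first transcript base covered.
Trf, chr9:103117569-103118184, reverse strand: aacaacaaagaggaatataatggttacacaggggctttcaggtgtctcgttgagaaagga
Apoa2, chr1:173155858-173155917, forward strand: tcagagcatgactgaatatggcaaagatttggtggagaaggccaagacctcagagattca
Apob from base 3189, chr12:8005482-8007691, forward strand: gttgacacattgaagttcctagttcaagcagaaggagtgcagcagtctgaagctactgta
Apob from base 6486, chr12:8014710-8014769, forward strand: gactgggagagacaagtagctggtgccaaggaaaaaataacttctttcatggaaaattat
Apob from base 10517, chr12:8018741-8018800, forward strand: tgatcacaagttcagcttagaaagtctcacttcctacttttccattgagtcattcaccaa
Apob from base 13397, chr12:8023134-8023193, forward strand: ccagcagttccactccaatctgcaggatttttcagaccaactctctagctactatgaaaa
Apob from base 13457, chr12:8023194-8023253, forward strand: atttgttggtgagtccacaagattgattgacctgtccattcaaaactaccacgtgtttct
All 7 are 60 bases long. The Trf probe spans 616 bases of the genome and the first Apob probe 2210, so both cross an exon junction.

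The arrays differed beyond the genes of interest. Between 45.0% and 52.8% of spots were well above background in Tbx5+/- pools and between 50.9% and 63.6% in wild-type pools (exact permutation test, two-sided, p = 0.0571). The median level, a log2 value after variance stabilization (VSN), lay between 9.47 and 9.83 in Tbx5+/- and between 9.89 and 10.06 in wild-type over the probes tested (exact permutation p = 0.0286, the smallest that 4 arrays against 4 allow). Over all probes tested the median difference was -0.19 on the log2 scale, and it was 0.0996 after scaling to the 75th percentile, so differences are best read against it. P-values measure the spread between these pools only. Tbx5 itself was at 9.01, 9.73, 9.16 and 8.62 in Tbx5+/- pools 1, 5, 6 and 7 and at 11.47, 11.56, 10.42 and 11.54 in the wild-type pools, with no overlap.

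No gene of the set differed between genotypes past the threshold. With limma, 0 of 6 tested probes had an adjusted p under 0.05, against 0% of all 20028 probes (0 calls). All 6 were lower on average in Tbx5+/-, as were 61.1% of gene names by their brightest tested probe. Within embryo numbers 1 and 7 all 6 were lower, but within number 5 only 2 were, and within number 6 only 2. Apoa2 met the filter through wild-type alone. For 2, Apoa2 and Trf, the unadjusted limma p was under 0.05, where 18.5% of all probes were lower at that level. The median difference of the 6 was -0.90 on the log2 scale. Pools of the same number deviated together in both groups, though only weakly for number 7. With the number as a replicate block there were limma adjusted p-values under 0.05 for 1 member, Trf, and for 11.1% of all probes (2220). Without the block, leaving out Tbx5+/- pool 1 called 3842 probes, Trf among them, and leaving out wild-type pool 1 called 212, with no member. In bulk tissue, fewer cells of a type and less RNA per cell cannot be told apart.

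**Figure D1:**
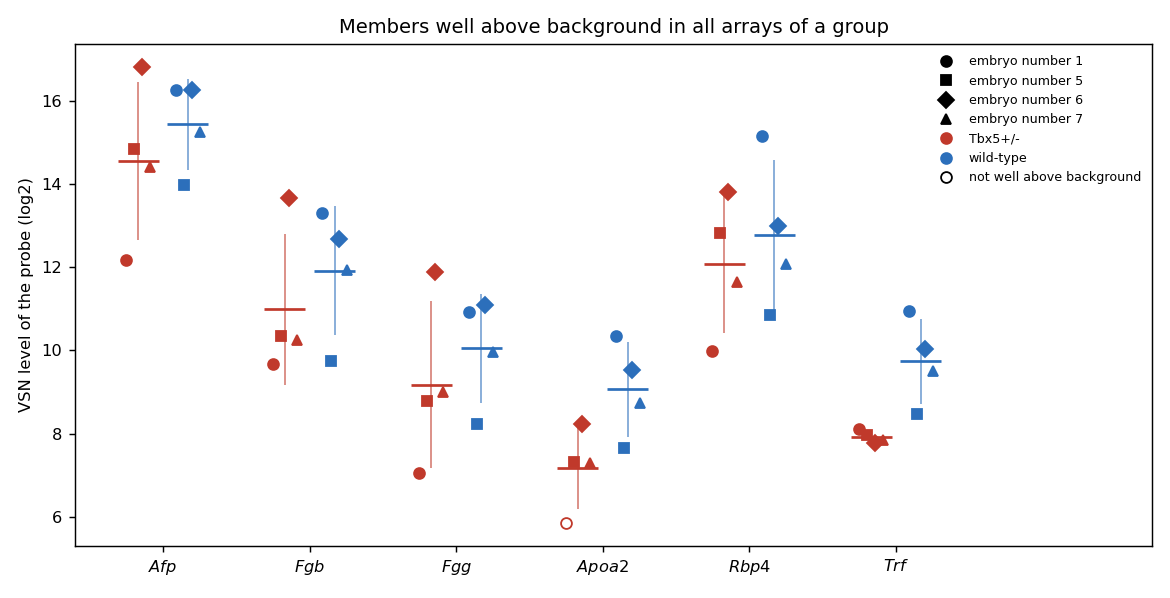
Level of each tested gene (vertical axis, VSN log2) in the 4 Tbx5+/- pools (red) and 4 wild-type pools (blue), with symbols for embryo numbers. Horizontal bars are group means and vertical lines ± 1 SD; only Trf has groups that do not overlap, and pool 1 is the lowest Tbx5+/- pool of every gene but Trf.

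Afp, the albumin-family carrier of the fetal liver and yolk sac, was measured by 1 probe in 10 spots (chr5:90937781-90937840, mm9). Its level was 12.18, 14.83, 16.81 and 14.40 in Tbx5+/- pools 1, 5, 6 and 7. The wild-type pools had 16.26, 13.96, 16.26 and 15.24. Tbx5+/- pool 1 stood lowest and Tbx5+/- pool 6 highest of all 8, so the wild-type values lay within the Tbx5+/- range, which spanned 24.8-fold. The level in wild-type spanned 4.92-fold. The difference was -0.88 ± 0.87 (SE, n = 4 against 4; limma adjusted p = 0.544), with a 95% interval from -2.82 to 1.07. It was -0.0842 without Tbx5+/- pool 1, -1.63 without Tbx5+/- pool 6 and 0.19 without both pools numbered 1. Repeated spots within an array had SDs between 0.0156 and 0.0426, far under the SDs between pools of 1.90 (Tbx5+/-) and 1.09 (wild-type). Within array label 1, which holds pools 1 and 5, the difference was -1.61, and within array label 2 it was -0.15.

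Fgb, the beta chain of the clotting protein fibrinogen (chr3:82846334-82846393), followed the same pools. It was at 9.68, 10.35, 13.67 and 10.24 in Tbx5+/- pools 1, 5, 6 and 7. In wild-type the values were 13.30, 9.75, 12.68 and 11.92. Tbx5+/- pool 6 lay more than 3 log2 units above the other Tbx5+/- pools, and the wild-type range lay inside theirs. The difference was -0.93 ± 0.94 (SE, n = 4 against 4; limma adjusted p = 0.555), with a 95% interval from -3.03 to 1.18. It was -1.82 without Tbx5+/- pool 6, -1.65 without wild-type pool 5, -0.49 and -0.46 without Tbx5+/- or wild-type pool 1, and -0.0278 without both of these. Fgg, the gamma chain (chr3:82818825-82818884), was at 7.05, 8.78, 11.88 and 9.0 in Tbx5+/- and at 10.93, 8.23, 11.10 and 9.96 in wild-type. Its pool 6 was again the highest Tbx5+/- pool and pool 1 the lowest, and its difference was -0.88 ± 0.95 (SE; limma adjusted p = 0.580). That value was -0.17 without Tbx5+/- pool 1, -1.78 without Tbx5+/- pool 6 and 0.12 without both pools numbered 1. The 3 chains lie within 27.6 kb on chromosome 3, by the outer ends of their probes. Fga, the alpha chain (chr3:82835678-82835737), was not well above background on any Tbx5+/- array and on 1 wild-type array, pool 1. Its levels were 6.35, 4.74, 6.33 and 5.43 in Tbx5+/- and 6.40, 4.52, 6.09 and 5.16 in wild-type. Both groups ran in the order 1, 6, 7 and 5, but the values are near background and no fold is given.

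Rbp4 carries retinol in blood, and Ttr carries thyroxine and binds Rbp4. Rbp4 (chr19:38191129-38191188) was at 9.99, 12.83, 13.80 and 11.66 in Tbx5+/- pools 1, 5, 6 and 7 and at 15.14, 10.86, 12.98 and 12.07 in the wild-type pools. Wild-type pool 1 was the highest of all and Tbx5+/- pool 1 the lowest, a gap of -5.15 between pools of the same number. The difference was -0.70 ± 0.97 (SE, n = 4 against 4; limma adjusted p = 0.670), and it was 0.10 without wild-type pool 1 and 0.79 without both pools numbered 1, so its direction rests on those pools. Ttr did not meet the filter, with 2 Tbx5+/- and 3 wild-type pools well above background. It was at 5.45, 6.37, 6.88 and 6.05 in Tbx5+/- and at 9.47, 4.95, 6.86 and 5.83 in wild-type, with wild-type pool 1 alone standing apart.

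The apolipoproteins of high-density lipoprotein came next. Apoa2 (chr1:173155858-173155917) was at 5.86, 7.33, 8.24 and 7.29 in Tbx5+/- pools 1, 5, 6 and 7, the first of which was not well above background. The wild-type pools had 10.34, 7.67, 9.53 and 8.74. Each Tbx5+/- pool lay below the wild-type pool of its number, and the groups overlapped only because Tbx5+/- pool 6 exceeded wild-type pool 5. The difference was -1.89 ± 0.61 (SE, n = 4 against 4), a level 3.71-fold lower in Tbx5+/-, with a 95% interval from -3.25 to -0.53 (limma p = 0.0113, adjusted p = 0.168; exact permutation p = 0.0571). It was -2.41 within array label 1, -1.37 within array label 2 and -1.03 without both pools numbered 1. Apoa1, the main protein of the same particles (10 spots, chr9:46037921-46037980), was not tested either, being well above background in 1 Tbx5+/- and 3 wild-type pools. Its levels were 5.76, 6.93, 6.40 and 6.0 in Tbx5+/- and 10.10, 5.51, 6.79 and 5.86 in wild-type. Wild-type pool 1 was 3.17 above the next pool, Tbx5+/- pool 5, and the other wild-type pools reached no further than 6.79.

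Apob, the scaffold of low-density and very-low-density lipoprotein, was not tested at any of its 5 probes, whose sequences are given above. The probe nearest the 3′ end, from transcript base 13457, was at 6.20, 6.50, 7.58 and 5.93 in Tbx5+/- and at 9.57, 5.4, 7.06 and 5.76 in wild-type. Its neighbour from base 13397 was at 6.57, 5.77, 7.22 and 4.66 in Tbx5+/- and at 9.03, 4.93, 6.90 and 5.31 in wild-type. On both, wild-type pool 1 stood highest, and the next, Tbx5+/- pool 6, was not well above background. The probes from bases 6486 and 10517 were not well above background on any array. On the probe from base 3189 only wild-type pool 1 was (6.40), with 4.21 to 5.66 in Tbx5+/- and 4.80 to 5.50 in the other wild-type pools. For the probe from base 13397, which was not well above background on any Tbx5+/- array, wild-type was at least 1.05-fold higher. This bound sets the mean of the wild-type pools against, on each Tbx5+/- array, the higher of the probe's own level and the lowest level of any probe well above background, and it rests on wild-type pool 1. Over 1753 transcripts with probes at least 1000 bases apart, the 3′ probe was brighter than the 5′ one by a median of 1.82 to 2.51 log2 units in Tbx5+/- pools and 1.76 to 2.13 in wild-type pools (exact permutation p = 0.114).

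**Figure D2:**
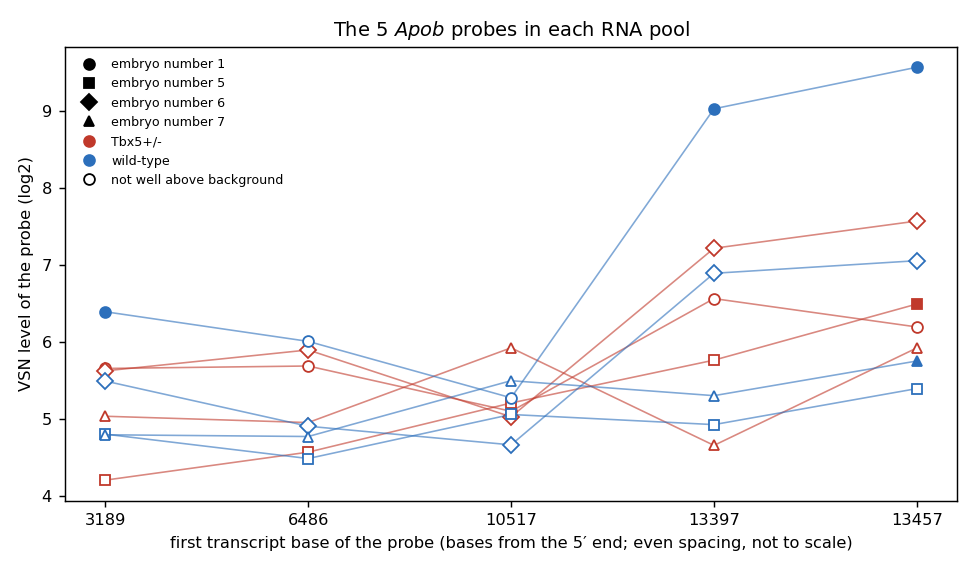
Level of the 5 Apob probes (vertical axis, VSN log2) ordered by their first transcript base (horizontal axis, even spacing), 1 line per pool, red for Tbx5+/- and blue for wild-type; open symbols were not well above background. Wild-type pool 1 reaches 9.03 and 9.57 at the 3′ probes, while every pool lies between 4.21 and 6.40 at the first 3 probes.

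Trf, the iron carrier of plasma (chr9:103117569-103118184), had a pattern of its own. Its level was 8.11, 7.96, 7.77 and 7.85 in Tbx5+/- pools 1, 5, 6 and 7. In the wild-type pools it was 10.94, 8.47, 10.03 and 9.50. All Tbx5+/- pools lay below all wild-type pools, as did those of 8.98% of all probes with a value on every array. The difference was -1.81 ± 0.44 (SE, n = 4 against 4), a level 3.51-fold lower, with a 95% interval from -2.78 to -0.84 (limma p = 0.00203, adjusted p = 0.100; exact permutation p = 0.0286, the smallest possible). Against the median of all probes tested it was -1.62. It was -1.67 within array label 1 and -1.96 within array label 2, and by number -2.83, -0.51, -2.26 and -1.65 for 1, 5, 6 and 7. With embryo number as a replicate block the limma adjusted p was 0.0347, without Tbx5+/- pool 1 it was 0.0364, and over the alternatives tried it ranged from 0.00164 (a q-value of SAM) to 0.346. The Tbx5+/- pools had an SD of 0.15, smaller than that of all but 6.56% of probes, whereas the wild-type SD of 1.03 was larger than that of 98.9%.

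**Figure D3:**
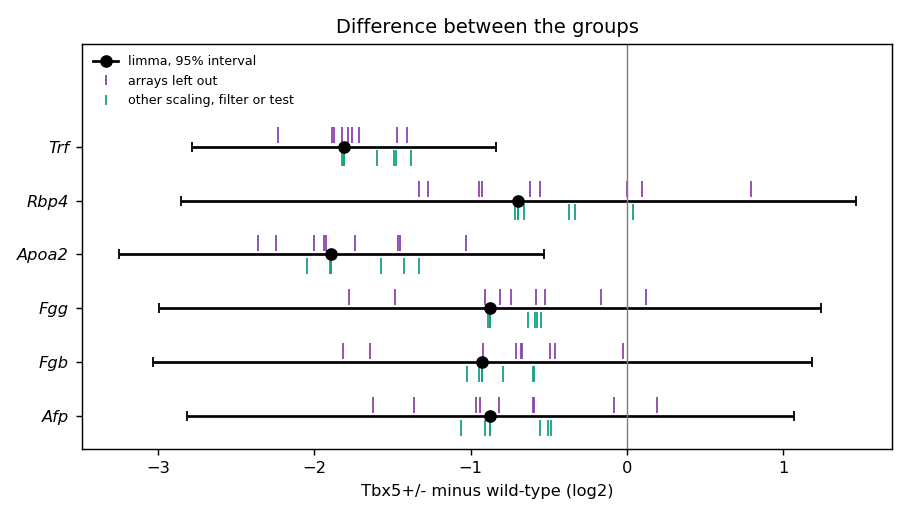
Difference between Tbx5+/- and wild-type (horizontal axis, log2) for the 6 tested genes with its 95% limma interval (black); ticks give the value with 1 array or both arrays of number 1 left out (purple, above) and under other scalings, filters or tests (green, below). The Trf and Apoa2 ticks all lie below 0, and ticks of Afp, Fgg and Rbp4 reach beyond it.

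The spread between pools of 1 genotype was the main feature of the other genes. The SD of Afp, Fgb, Fgg and Rbp4 exceeded that of at least 99.0% of all probes tested in both groups, where the median SD was 0.43 in Tbx5+/- and 0.26 in wild-type. The SD of Apoa2 was above that of 93.2% of probes in Tbx5+/- and 99.2% in wild-type. The pools also came in a shared order, which was noticed after the values were seen. In wild-type, pool 1 was highest, then 6, 7 and 5, in 5 of the 6 tested probes (every one but Fgg, where pool 6 led), an order held by 6.7% of all probes. In Tbx5+/-, pool 6 led, then 5, 7 and 1, in 4 of 6, against 8.92% of all probes. As pools share their tissue and probes are not independent, these counts describe the 8 pools. Pools of the same number did not all keep their rank in both genotypes. Number 1 was the highest wild-type pool and the lowest Tbx5+/- pool of Afp, Fgb, Apoa2 and Rbp4, whereas number 7 held the same place in both.

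A pair of wild-type pools separated the genes. Afp had nearly the same level in wild-type pools 1 and 6 (a gap of 0.0042), as had Fgg (-0.17), and Fgb was 0.63 higher in pool 1. Apoa1, in contrast, was 3.32 higher in pool 1, Ttr 2.61 and Rbp4 2.15, while the 3′ Apob probes were well above background in pool 1 and not in pool 6. Apoa2 and Trf lay between, at 0.81 and 0.91, and the median over all probes tested was 0.12. Tbx5+/- pool 6, which was above wild-type pool 1 in Afp, Fgb and Fgg, was 2.58 below it in Ttr and 3.17 in Trf, and in Apoa1 it was not well above background. These gaps are between single pools and carry no test.

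**Figure D4:**
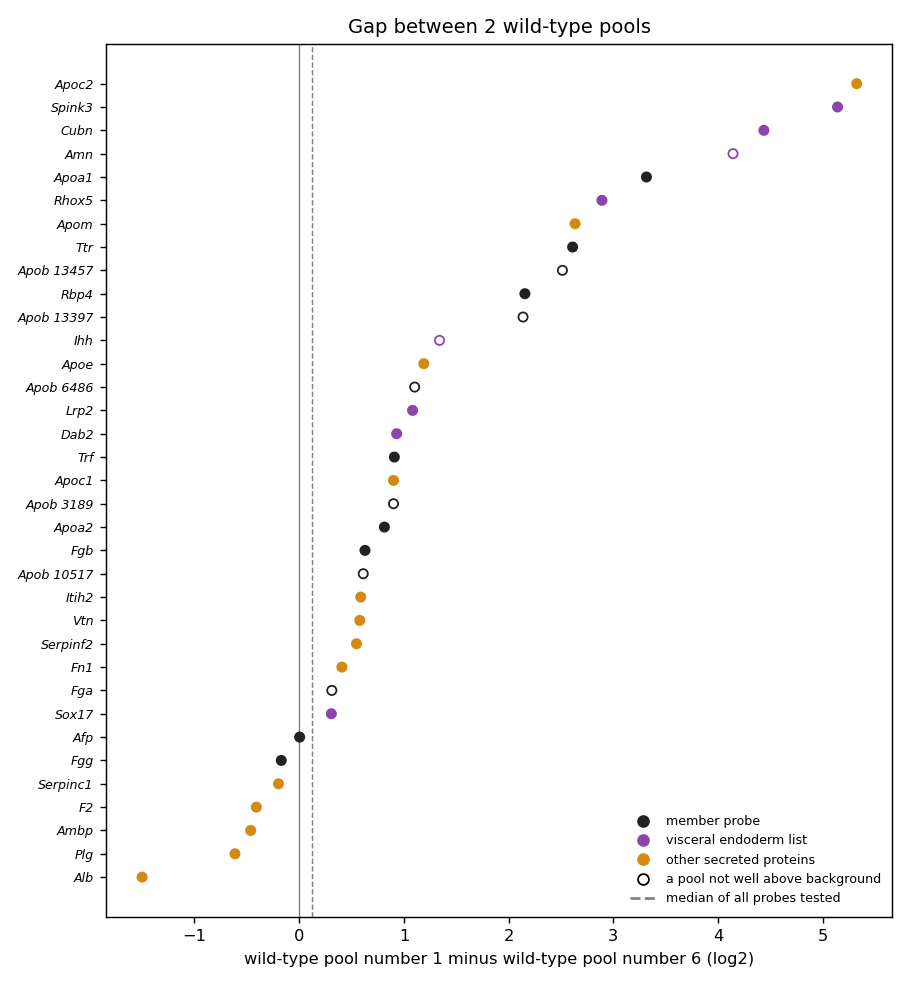
Gap between wild-type pools 1 and 6 (horizontal axis, log2, pool 1 minus pool 6) for member probes (black), other secreted-protein genes that were tested (orange) and visceral endoderm markers (purple); Apob probes carry their first transcript base, and open symbols had a pool not well above background. Afp and Fgg sit near 0, and Apoa1 (3.32) sits among Apoc2, Spink3, Cubn, Amn and Rhox5.

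Other plasma proteins gave the same picture between genotypes. Of 19 further secreted-protein genes 13 were tested, 0 passed, and 4 were lower at an unadjusted p under 0.05, against 15.4% of all gene names lower and 4.1% higher at that level. The 13 were well above background on every wild-type array and 8 on every Tbx5+/- array, so the others met the filter through wild-type alone. All 13 were lower on average, as were 61.1% of gene names, and their median difference was -0.90 (all gene names, -0.13). That median was -0.55 without wild-type pool 1 and -0.27 without both pools numbered 1. Serpinf2, which encodes the plasmin inhibitor, had the largest size of difference at -2.02 ± 0.69 (SE; limma adjusted p = 0.181). It was followed by Itih2, a hyaluronan-binding inhibitor chain, at -1.63 (adjusted p = 0.218) and Apom, a carrier of sphingolipid in high-density lipoprotein, at -1.48 (adjusted p = 0.333). With the replicate block 1 of the 13 passed, Fn1 (fibronectin), against 11.1% of all probes, and Serpinf2 had a limma adjusted p of 0.0518. Ambp, the source of the protease inhibitor bikunin, was at -1.15 and Serpinc1, which encodes antithrombin, at -1.10. Of the 13, 6 had the wild-type order 1, 6, 7 and 5, held by 6.7% of all probes. The Tbx5+/- order 6, 5, 7 and 1 was that of 5, against 8.92% of all probes. Apoc2, the activator of lipoprotein lipase, chosen after its values were seen, was at 12.43 in wild-type pool 1 and between 5.94 and 9.12 in the other 7 pools. Albumin, also chosen so, went the other way, at 8.05 in wild-type pool 1 and 9.55 in wild-type pool 6, and was highest in Tbx5+/- pool 6 at 9.79.

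Of 12 hepatic transcription factors, all 12 were tested and 0 passed. All 12 were well above background on every wild-type array and 6 on every Tbx5+/- array, so the others met the filter through wild-type alone. All 12 were lower on average, as were 61.1% of gene names, with a median difference of -0.71. The median was -0.45 without wild-type pool 1 and -0.34 without both pools numbered 1. Gata4 and Gata6, zinc-finger factors of heart and endoderm alike, had differences of -1.37 ± 0.37 and -1.17 ± 0.30 (SE; limma adjusted p = 0.120 and 0.110). Prox1, needed for hepatoblasts to migrate from the bud, was at -1.16 ± 0.22 (adjusted p = 0.0920, the smallest over all probes, which Tbx5 shared). These 3 had no overlap between groups, against 8.98% of all probes. They were those with an unadjusted limma p under 0.05, where 15.4% of gene names were lower at that level. With the replicate block all 3 passed, at limma adjusted p-values of 0.0335 (Gata4, Prox1) and 0.0356 (Gata6), as did 11.1% of all probes. Gata4 is also a marker of the pSHF list. Hnf4a, a nuclear receptor that governs hepatocyte genes, had a difference of -1.0 (adjusted p = 0.273). Foxa3 was not well above background on any Tbx5+/- array and was on all wild-type arrays, at 8.61 in pool 1 and 5.97 to 6.75 in the others. By the bound used for Apob, the wild-type mean was at least 1.6-fold higher (limma adjusted p = 0.243), which rests on wild-type pool 1. The groups overlapped, with wild-type pool 5 (5.97) below Tbx5+/- pool 5 (6.20).

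The receptors and partners of these proteins were split in direction. Of 14 genes 12 were tested and 0 passed, and 8 of 12 were lower on average, against 61.1% of gene names. The median difference of -0.16 turned to 0.20 after scaling to the 75th percentile, 0.21 without Tbx5+/- pool 1 and 0.0430 without wild-type pool 1. Stra6, the cell-surface receptor of retinol-binding protein, was at -0.98 ± 0.40 (SE; limma adjusted p = 0.209, or 0.0450 with the replicate block). Lrp1, a receptor for remnants of lipoproteins, was at -0.63, Mttp, which loads lipid on Apob, at -0.57, and Lrp2, the endocytic receptor megalin, at 0.51.

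Markers of other tissues moved with single pools. The summed level of 8 visceral endoderm markers was 15.21 in wild-type pool 1 and 12.31 to 13.28 in the other 7 pools, 3.81-fold above the next. Amn was at 11.02 there and at most 7.25 elsewhere, Spink3 at 12.76 against at most 9.38, Cubn at 11.86 against at most 9.45, and Rhox5 at 14.18 against at most 12.50. Of the 8, 7 were highest in this pool (Lrp2, at 10.59, was below Tbx5+/- pool 1 at 10.62), as were 26% of all probes tested. Of the tested members, Apoa2, Rbp4 and Trf were highest there, and Afp, Fgb and Fgg in Tbx5+/- pool 6 (22% of all probes). Counting untested probes, several of them of Apob, 10 of the 14 of the set were highest in wild-type pool 1. Between genotypes, 6 of the 8 visceral endoderm markers were tested and 0 passed, with a median difference of -0.25. That median was 0.0961 after scaling to the 75th percentile, 0.93 without wild-type pool 1 and 0.78 without both pools numbered 1. Sox17, which endothelium also expresses, was the 1 marker with an unadjusted p under 0.05 (-1.01 ± 0.33, SE; limma adjusted p = 0.172, or 0.0454 with the replicate block). All 8 were well above background on at least 1 array.

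The summed level of the 9 liver bud markers, of which Afp and Ttr are members, was 14.68 to 17.17 in Tbx5+/- and 15.53 to 17.14 in wild-type, highest in Tbx5+/- pool 6 and wild-type pool 1. As a linear sum it follows its brightest genes, Afp (16.81 in Tbx5+/- pool 6) and Dlk1 (15.85 in wild-type pool 1). It is therefore no measure apart from Afp. Of 8 tested, all were lower on average (median -0.87), as were 61.1% of gene names, and 0 passed. These 8 were well above background on every wild-type array and only 4 on every Tbx5+/- array. The median was -0.49 without wild-type pool 1 and -0.38 without both pools numbered 1. The 11 primitive erythrocyte genes had their lowest summed levels in both pools numbered 1, 16.78 and 16.80, against 18.20 to 19.55 in the others, and so did not follow the wild-type order of the secreted proteins. Their 10 tested genes had a median of -0.15, which turned to 0.21 after scaling to the 75th percentile, 0.27 without Tbx5+/- pool 1 and 0.19 without wild-type pool 5, and was -0.60 without Tbx5+/- pool 5 and -0.53 without wild-type pool 1. Summed foregut endoderm markers were 16.66 to 16.99 in Tbx5+/- and 16.39 to 17.57 in wild-type, with wild-type pool 1 again the highest, and 0 of 11 tested passed (median -0.40, or -0.0680 after that scaling and -0.23 without wild-type pool 1). Of the 10 pSHF genes 9 were tested and 0 passed, with a median of -1.13. These 9 were well above background on every wild-type array and 5 on every Tbx5+/- array. Of the 9, 6 had an unadjusted limma p under 0.05 in the lower direction, against 15.4% of gene names. With the replicate block 6 of the 9 passed, Tbx5 and Gata4 among them, against 11.1% of all probes. Of 9 endothelial genes 5 were lower at that level (15.4% of gene names) and 0 passed, with 2 passing under the replicate block (11.1% of all probes). Their median was -0.84, or -0.49 after that scaling and -0.50 without Tbx5+/- pool 6. Of 12 cardiomyocyte genes 0 were lower at that level and 0 passed. Their median was 0.0078, or 0.38 after that scaling, 0.28 without Tbx5+/- pool 1 and -0.15 without Tbx5+/- pool 7. The 5 neural tube genes tested of 8 had a median of 0.11 and 0 passed. That median was -0.47 without wild-type pool 1 and 0.62 without wild-type pool 5. The summed level of the 8 was lowest in wild-type pool 1 (10.64) and highest in wild-type pool 5 (13.71). What part these tissues have in the levels of the secreted proteins was not tested.

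**Figure D5:**
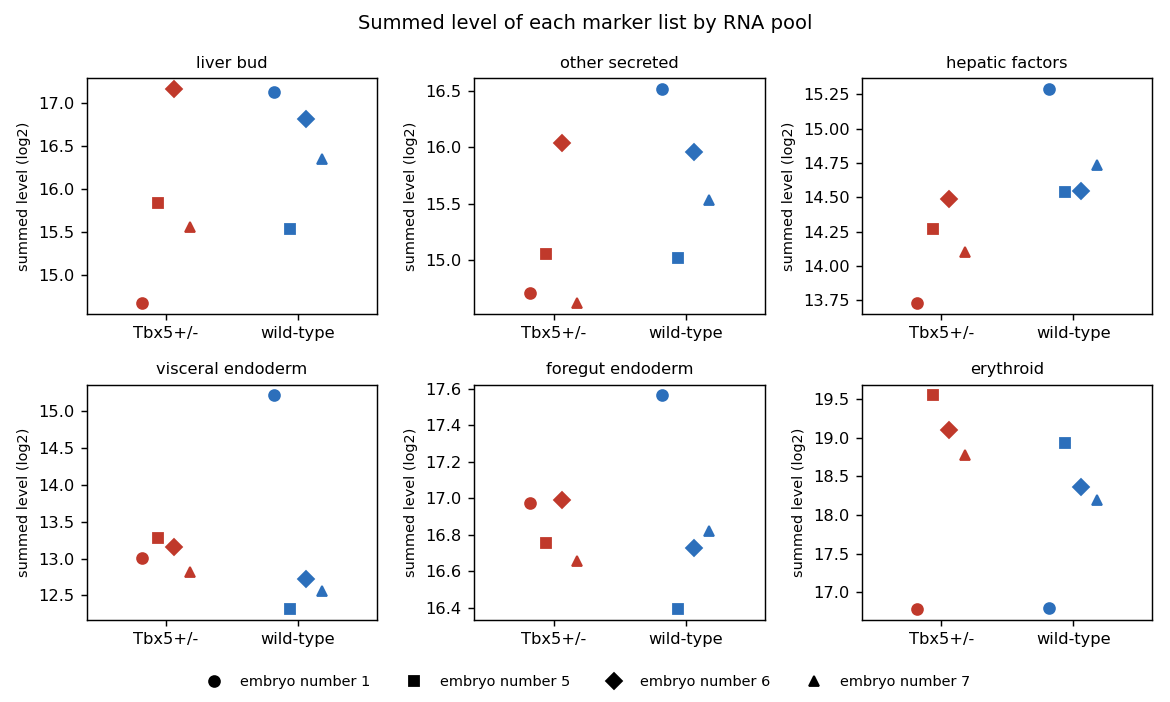
Log2 of the summed linear level of each marker list (vertical axes, which differ between panels) by genotype, 1 symbol per pool. Wild-type pool 1 stands apart in visceral endoderm markers (15.21), and both pools numbered 1 are lowest in erythroid genes.

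The genes whose pattern over the 8 arrays came closest to the mean of the 6 tested members were named by the root mean square of the difference, after each probe was centred on its own mean. Itih2 was closest at 0.36 log2 units, then Reln (reelin, a secreted matrix protein) at 0.39 and Postn (periostin, also of the matrix) at 0.39. Serpinc1, Cfb (complement factor B) and F2 (prothrombin) followed at 0.44, 0.45 and 0.46. Serpinf2, Ambp and Serpina1b (an alpha-1-antitrypsin gene) were at 0.50, 0.52 and 0.55. The median of all probes was 1.30. The members lay at 0.45 (Afp) to 0.60 (Rbp4), apart from Trf at 0.97. The mean includes each of them, so their closeness is partly built in and cannot be set against that of other genes.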

How the data were processed

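RNA of 8 pools was hybridized to 1-color Agilent whole mouse genome arrays. Per the file headers, the deposited scanner files hold linear intensity values from Agilent Feature Extraction 10.5.1.1 with quality marks, on mm9. The authors' deposited table holds log2 values after background correction and VSN. Groups came from the labels. Here, each spot's mean signal was reduced by its median local background, 1115 outlier spots were left out, repeated spots were averaged, and VSN was programmed in R 4.3.3 (90% of probes kept, 7 iterations). The result had r of at least 0.9999 with the deposited log2 values on every array, across probes, which are not independent. No spot was saturated (0). Probes well above background on all 4 arrays of a group were tested with limma 3.58.1 (two-sided, no covariate), with Benjamini-Hochberg adjustment over all 20028 and a threshold of 0.05. For single values, an exact permutation test over 70 assignments was used. A listed gene was represented by its brightest tested probe. Precision is limited by the number of arrays. When 200 of 20021 simulated probes were changed, limma found 6 of them at a log2 change of 1, 166 at 2 (and 10 unchanged probes) and 187 at 3 (and 8).

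Samples of the same number deviated together (r = 0.438, 0.400, 0.593 and 0.137 for numbers 1, 5, 6 and 7), so the number was used as a block in an alternative. Unlike numbers had r from -0.599 to 0.372. The highest was that of Tbx5+/- pool 7 with wild-type pool 6, so number 7 did not match its own partner best. Alternatives covered scaling, filters, blocks, array weights, SAM after the study's methods (programmed here) and single arrays left out. Array labels 1 and 2 are 2 slides. The members, lists and motifs were chosen with earlier results of these data known. Named were all members, up to 5 genes of each list with the largest size of difference, and the 10 genes most alike, apart from some that are not reported here. Genes beyond that rule were chosen after their values were seen.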

Additional observations from a re-analysis of the deposited data

Results flagged for a closer look

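Among the 28 groups of 4 pools tested for a value standing apart, 1 was marked, and chance marks about 1 in 20. Fgb was at 13.67 in Tbx5+/- pool 6, and the next Tbx5+/- pool was at 10.35, a gap of 0.834 of the group's range that exceeded Dixon's critical value. The same pool was the highest Tbx5+/- pool of Afp (16.81) and Fgg (11.88).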

How the results depend on the processing

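Of 119 differences recomputed for the 6 tested genes, 107 kept their direction and side of the threshold, 7 passed it in the same direction and 5 changed sign. Rbp4 was at 0.0411 with array weights, between -1.33 and 0.10 leaving out single arrays (0.10 without wild-type pool 1) and 0.79 without both pools numbered 1, an alternative chosen after seeing the data, in which Afp was at 0.19 and Fgg at 0.12. The count of member probes called was 0, and it was 1 with the replicate block (Trf), 2 with array weights and 2 with SAM (Apoa2 and Trf each time), 1 (Trf) without both pools numbered 1 and 0 to 1 leaving out single arrays (Trf without Tbx5+/- pool 1). Over all probes 0 were called, with 2220 under the replicate block, 8721 with array weights, 3602 with SAM on the more variable probes, 3150 without both pools numbered 1, and 0 to 3842 leaving out single arrays (3842 without Tbx5+/- pool 1, 212 without wild-type pool 1). The block changed no other member call. The cause was not tested. Median differences over all probes were 0.0996 after 75th percentile scaling, 0.13 after centring, -0.0129 after quantile normalization, 0.0393 with no filter and -0.45 over the probes of SAM. The Apoa2 adjusted p ranged from 0.00369 to 0.398. The 8 probes of the set that missed the filter were tested only with no filter, where limma called 0, and signals near background limit what they can show.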
